A study of Mus musculus with 2 samples.

Results

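The replication-dependent histone genes were examined in long-term hematopoietic stem cells (LT-HSCs), the bone marrow cells that renew themselves and supply all blood lineages. They were taken as every gene on the array whose design name starts with Hist1h, Hist2h, Hist3h or Hist4h, the older mouse names of the 4 clusters of these genes, each with a current RefSeq symbol. This gave 45 genes with 52 probes, of 27326 gene names and 55681 probes on the array. They code for the linker histone H1 (6 genes) and for the core histones H2A (12), H2B (10), H3 (8) and H4 (9). Both groups were 2-year-old C57BL/6J mice that carried floxed p38α alleles (p38αfl/fl). The mice labelled p38αΔ/Δ also carried CAG-CreERT2, a Cre that is induced by tamoxifen (TAM) and driven by a promoter active in most tissues, so the deletion was not restricted to HSCs. They were given TAM at 50 to 60 weeks of age and analysed 1 year later, the TAM course in the methods being 2 mg on 5 consecutive days. The p38α+/+ controls were age-matched, TAM-injected p38αfl/fl mice without Cre. The labels give the sorted cells as CD150+CD48-Flt3-CD34- cells within the LSK (lineage-Sca-1+c-Kit+) gate, and the number of mice behind an array is not given in the sources used here. There was 1 array per genotype, so no spread between mice could be measured, no test was made, and every value below compares these 2 arrays and not the genotypes.

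Replication-dependent histone genes supply the histones that package new DNA during S phase. They lie in clusters, have no introns, and end in a short stem-loop instead of a poly(A) tail. The stem-loop is bound by SLBP, which serves in processing, export and translation of the mRNA, and the genes are transcribed in histone locus bodies under NPAT, the cyclin E-CDK2 substrate. Some of these genes also give polyadenylated transcripts in cells that have stopped dividing. Aged LT-HSCs are mostly quiescent. How the cDNA was primed is not given in the sources used here, so signal from stem-loop and from polyadenylated transcripts cannot be told apart.

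Levels are log2 signals minus the 75th percentile of all probes on the same array, and a difference is the p38αΔ/Δ array minus the p38α+/+ array. The scanner marked 67.9% and 69.0% of all probes on the respective arrays as well above background. A probe without that mark is called dim below, and folds are then given as lower bounds. Spots of a repeated probe had a median SD of 0.0972 and 0.103 (log2) within an array, which gives 0.141 for a difference between single spots. This covers spot error only. Mapk14, the gene of p38α, read 2.34 on the p38α+/+ array and 2.31 on the other at its brighter probe (mm9 chr17:28885290-28885349), and 2.08 and 2.03 at its other probe. Its signal was thus not lower by more than the spot error, whether these probes lie in the deleted part is not given, and the second array is called by its label throughout. The paper reports that genomic qPCR of blood cells found p38α reduced in p38αΔ/Δ mice of this age. It also reports lower expression of p38MAPK pathway genes in their LT-HSCs. That result came from gene set enrichment analysis of the paper's microarray data for LT-HSCs of this age, so it is not evidence separate from such arrays.

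Of the 45 histone genes, 37 were well above background on both arrays, 3 on the p38α+/+ array alone and 5 on neither. Of the 37, 30 read lower on the array labelled p38αΔ/Δ and 7 higher, with a median difference of -0.63, where 52.0% of 18505 named genes measured on both arrays read lower. The 3 others could only read lower, since they were measured through the p38α+/+ array alone. With them, 33 of 40 genes read lower, against 51.1% of all 20495 named genes measured, and the median was -0.65, or 1.57-fold lower, with quartiles of -0.87 and -0.41. Over all named genes the median was -0.02 with quartiles of -0.37 and 0.36. Few members passed 2-fold: 6 were at least 2-fold lower (all named genes 6.74%) and 0 at least 2-fold higher (all named genes 5.23%), and 2 of the 6 were measured on the p38α+/+ array alone. Each of the 37 genes measured on both arrays differed by more than the 0.141 of single spots, 7 of them upward. Both quartiles of all named genes also lie beyond 0.141, so passing it does not set the members apart.

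**Figure D1:**
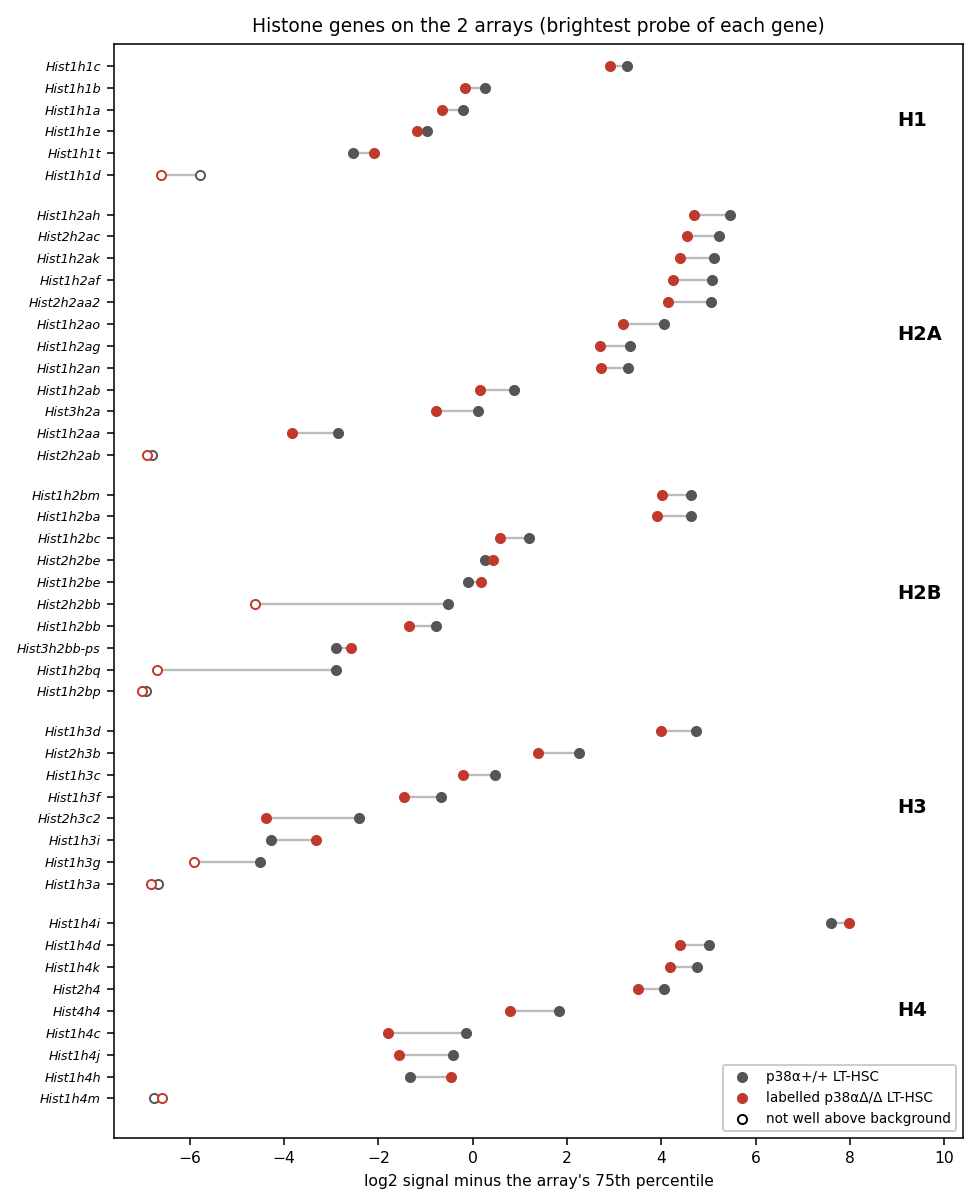
Level of the brightest probe of each of the 45 histone genes on the p38α+/+ array (grey) and the array labelled p38αΔ/Δ (red), as log2 signal minus the array's 75th percentile, grouped by histone class. Open circles are dim probes. All 11 measured H2A genes have the red point to the left, and Hist1h4i is the brightest member, with the red point to the right.

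Apart from Hist1h4i, the members with bright probes moved by much the same amount. Of 16 members with a mean level above 2, a split chosen after the values were seen, 15 read lower, with a median difference of -0.66. Among all 4146 named genes of that level, 60.2% read lower and the median was -0.10. A difference of -0.5 or lower was seen in 14 of the 16 members and in 10.1% of the named genes at that level. The exception to the direction was Hist1h4i. With it the 16 members had an SD of 0.30 between genes, against 0.42 for all named genes of that level. Without it, a choice made after the values were seen, the 15 others ranged from -0.90 to -0.37 with an SD of 0.14. The SD for single spots was 0.141, and no gene was left out of the 0.42. Of these 15, 8 are H2A genes whose probes share sequence, as described below. The probes of Hist1h2bm, Hist1h3d and Hist1h4k are each assigned to 4 RefSeq genes, so the 15 values are not independent. Of the 13 members with a mean level below 0 that were measured on both arrays, 9 read lower, with an SD of 0.91.

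**Figure D2:**
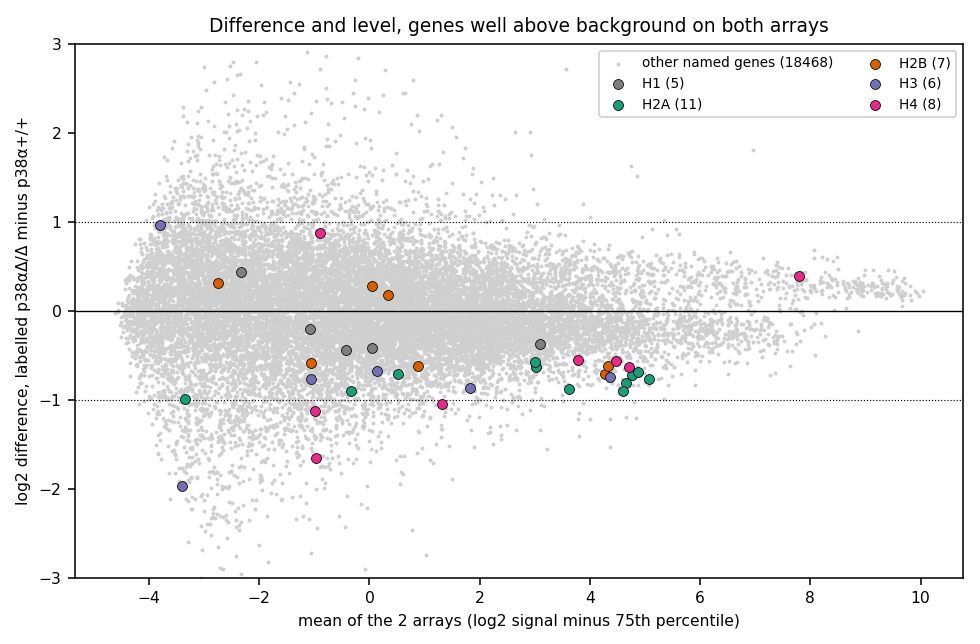
Log2 difference (array labelled p38αΔ/Δ minus p38α+/+) against the mean level of the 2 arrays for genes well above background on both. The 37 histone genes are coloured by class and other named genes are grey, with those beyond ±3 outside the frame; dotted lines mark 2-fold. Bright members lie between -0.90 and -0.37 apart from Hist1h4i at 0.40, and members with a mean level below 0 scatter to both sides of 0.

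H2A pairs with H2B in the nucleosome and carries the acidic patch that other proteins bind. Every H2A gene measured read lower, 11 of 11, with a median of -0.76 and a range of -0.99 to -0.57. Hist1h2ah had the highest signal of these probes, 5.45 on the p38α+/+ array and 4.68 on the other, a difference of -0.76. Hist2h2ac of the cluster on chromosome 3 read 5.22 and 4.54 (-0.68). The other bright H2A genes, Hist1h2ak, Hist1h2af, Hist2h2aa2, Hist1h2ao, Hist1h2ag and Hist1h2an, lay between 3.29 and 5.12 on the p38α+/+ array and differed by -0.90 to -0.57. The largest differences in the class were those of Hist1h2aa, at -2.85 and -3.84 (-0.99), Hist2h2aa2, at 5.04 and 4.14 (-0.90), and Hist3h2a, at 0.11 and -0.79 (-0.90). Hist1h2aa is known as a testis histone and lay near background, where another background correction (normexp) took its difference to -0.03. Hist2h2ab was dim on both arrays.

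Most of these H2A values do not come from separate sequences. All member probes are 60 bases long, and 8 H2A probes form a family in which each shares a run of at least 25 bases with another, as the coding sequences of H2A genes are nearly alike. The family read between -0.90 and -0.57 with an SD of 0.12. The probes of Hist1h2aa, Hist1h2ab and Hist3h2a share no such run and differed by -0.99, -0.71 and -0.90. The pair below is shown because both probes, from genes about which the array gives separate values, cover the last codons of H2A and end at the stop codon. Capitals mark the 3 bases that differ over the 54 bases in which they overlap.
Hist1h2ah (mm9 chr13:22127035-22127094, minus strand): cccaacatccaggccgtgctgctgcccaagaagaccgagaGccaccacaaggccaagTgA
Hist1h2ak (mm9 chr13:21845304-21845363, minus strand): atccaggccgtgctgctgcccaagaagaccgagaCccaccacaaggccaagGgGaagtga
In a second pair, 5 of 60 bases differ, again in capitals.
Hist1h2af (mm9 chr13:23626113-23626172, plus strand): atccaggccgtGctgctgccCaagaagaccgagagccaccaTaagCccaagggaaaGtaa
Hist1h2an (mm9 chr13:21902669-21902728, plus strand): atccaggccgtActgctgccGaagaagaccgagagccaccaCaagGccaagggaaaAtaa
The array design itself assigns 4 RefSeq genes to each of the Hist1h2ah, Hist1h2ak and Hist1h2an probes and 2 to that of Hist1h2af. Those of Hist2h2ac and Hist1h2ag are assigned to 1. For a probe assigned to several genes, which of them gave the signal or differed cannot be told apart, and cross-hybridization within the family was not measured. Among member probes measured on both arrays, the 14 designed to several RefSeq genes all read lower (median -0.84). The 23 designed to 1 RefSeq gene read lower in 17 cases, with a median of -0.58. Probes without an assigned RefSeq gene are in neither group. Assignment to 1 gene does not make a probe specific, since those of Hist2h2ac and Hist1h2ag share runs of 42 and 39 bases with that of Hist1h2ah.

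H2B was divided. Of the 7 H2B genes measured on both arrays 4 read lower and 3 higher, with a median of -0.58, a share close to that of all named genes. With 2 genes measured on the p38α+/+ array alone, which could only read lower, the median was -0.62. The bright H2B probes were those of Hist1h2bm, at 4.64 and 4.01 (-0.62), and Hist1h2ba, at 4.62 and 3.91 (-0.71). Hist1h2ba is known as the testis H2B, yet its probe was among the brighter members on both arrays. Hist1h2bc read 1.19 and 0.57 (-0.62), and Hist1h2bb read -0.78 and -1.36 (-0.58). The 3 that read higher were Hist3h2bb-ps, annotated as a pseudogene, at -2.90 and -2.58 (0.32), Hist1h2be at -0.10 and 0.18 (0.28), and Hist2h2be at 0.25 and 0.43 (0.18). The Hist1h2be and Hist2h2be probes start at bases 2375 and 1849 of their transcripts, far beyond an H2B coding sequence. Such a position did not go with 1 direction. Of the 5 core histone genes measured on both arrays whose probe starts at base 600 or later, Hist2h3c2, Hist3h2a and Hist1h2bc read lower. The median of the 5 was -0.62. Hist1h2bq also has such a probe, but it was measured on the p38α+/+ array alone and could only read lower. With it the median was -0.76.

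The largest difference of any member was that of Hist2h2bb. Its brightest probe (mm9 chr3:96074056-96074115) read -0.52 on the p38α+/+ array and was dim on the other, where it read -4.62, a level at least 17.2-fold lower. A second probe of the gene read -3.68 and was dim on the array labelled p38αΔ/Δ, at least 2.14-fold lower. A probe of the array for a long noncoding transcript of the same locus shares 42 bases with this second probe and behaved alike, at -3.99 on the p38α+/+ array and dim on the other. Hist1h2bq read -2.91 and was dim on the array labelled p38αΔ/Δ, at least 3.65-fold lower. These 2 genes made up the H2B members past 2-fold. Both rest on 1 spot per probe, and with another background correction Hist2h2bb differed by -1.07 and Hist1h2bq by -0.12.

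H3 and H4 form the tetramer at the centre of the nucleosome. Of the 6 H3 genes measured on both arrays 5 read lower, with a median of -0.75, and with Hist1h3g, measured on the p38α+/+ array alone, the median was -0.74. Hist1h3d was the brightest, at 4.73 and 3.99 (-0.74), and its probe is assigned to 4 RefSeq genes. Hist2h3b read 2.26 and 1.39 (-0.87), Hist1h3f -0.68 and -1.45 (-0.77), and Hist1h3c 0.47 and -0.21 (-0.68). Hist2h3c2 had the largest difference among members measured on both arrays, at -2.41 and -4.38 (-1.97), which became -0.18 with the other background correction. The exception was Hist1h3i, at -4.29 and -3.32 (0.97), whose probe had the lowest mean signal of the 37. Hist1h3g read -4.50 on the p38α+/+ array and was dim on the other, at least 1.21-fold lower, and Hist1h3a was dim on both.

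Of 8 measured H4 genes 6 read lower and 2 higher, with a median of -0.60. The bright genes were close to each other: Hist1h4d read 5.02 and 4.39 (-0.63), Hist1h4k 4.75 and 4.18 (-0.57), and Hist2h4 4.06 and 3.51 (-0.56). Larger differences were seen in 3 other genes, each past 2-fold, though none of them with normexp. Hist1h4c read -0.14 and -1.79 (-1.65; normexp -0.86), Hist1h4j -0.43 and -1.56 (-1.13; normexp -0.56), and Hist4h4, the single member on chromosome 6, 1.83 and 0.79 (-1.04; normexp -0.94). Hist1h4h read higher, at -1.34 and -0.46 (0.87), and Hist1h4m was dim on both arrays. With Hist2h3c2, these 3 H4 genes were the 4 of 37 members at least 2-fold lower among those measured on both arrays, where 4.95% of 18505 named genes were, and 0 of the 37 were at least 2-fold higher, where 4.17% of those genes were.

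Hist1h4i gave the highest signal of all members, 7.59 and 7.99 (0.40), from a probe that starts at base 483, past the H4 coding sequence. Its other probes went apart, at -1.18 and -1.28 (-0.10) for the probe at base 33 and at -1.94 and -1.57 (0.37) for the probe at base 574. The bright probe is shown in part (30 bases; the whole probe lies at mm9 chr13:22132679-22132738, minus strand) because its letters resemble the B1 element, a short repeat found in many mouse transcripts; no repeat annotation was used here to check this.
Hist1h4i, probe at base 483: agtgttgggattaaaggcgtgcgccacaag
Of all other probes on the array, 1 shares 20 or more bases with it, and that probe was bright too, at 8.65 on the p38α+/+ array, with a difference of 0.32. Whether this probe reads H4 mRNA was not tested, and the gene stays in the counts. Without it the H4 median was -0.63 and the median of all members -0.68, values chosen to be computed after the data were seen.

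The linker histone H1 binds the DNA that enters and leaves the nucleosome. Of 5 measured H1 genes 4 read lower, with none past 2-fold. Their median of -0.37 was the nearest to 0 among the 5 classes, except with normexp background correction, where H1 stood at -0.27 and H2B at -0.24. Hist1h1c was the brightest, at 3.28 and 2.91 (-0.37). Hist1h1a read -0.21 and -0.65 (-0.44), Hist1h1b 0.26 and -0.16 (-0.42), and Hist1h1e -0.97 and -1.18 (-0.21). The testis linker histone Hist1h1t read higher, at -2.54 and -2.11 (0.44), and Hist1h1d was dim on both arrays. No H1 probe shared 25 bases with another member's probe, so unlike most H2A values the H1 values come from separate sequences.

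Several genes were read by more than 1 probe, and the probes of a gene did not always give the same difference. In Hist1h4d, Hist1h4k and Hist1h2ak the probe nearer the 5′ end differed more. The probes of a gene are also assigned to unlike numbers of RefSeq genes (3 and 1 for Hist1h4d, 2 and 4 for Hist1h4k, 1 and 4 for Hist1h2ak, upstream first), so position and gene set cannot be told apart. For Hist1h4d the probe at base 44 read 3.07 and 1.92 (-1.15), against -0.63 for the probe at base 278.
Hist1h4d, base 44 (mm9 chr13:23673515-23673574, plus strand): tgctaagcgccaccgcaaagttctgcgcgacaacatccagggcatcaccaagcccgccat
Hist1h4d, base 278 (mm9 chr13:23673749-23673808, plus strand): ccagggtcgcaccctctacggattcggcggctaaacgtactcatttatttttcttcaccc
The first of these lies within the coding sequence and the second runs over the stop codon (taa). For Hist1h4k the probe at base 84 read 0.95 and -0.15 (-1.11), against -0.57 at base 300, and for Hist1h2ak the probe at base 85 read 1.92 and 0.74 (-1.17), against -0.73 at base 418. In Hist2h4 the order was the other way, with -1.03 and -0.89 (0.14) at base 3 and -0.56 at base 230. Over all 2860 transcripts on the array with probes at least 150 bases apart, the upstream probe had the lower difference in 60.7%, with a median of -0.17 between the probes. Of the 4 histone transcripts among them it was lower in 3, by -0.54 to -0.45, and higher in Hist2h4, by 0.69.

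**Figure D3:**
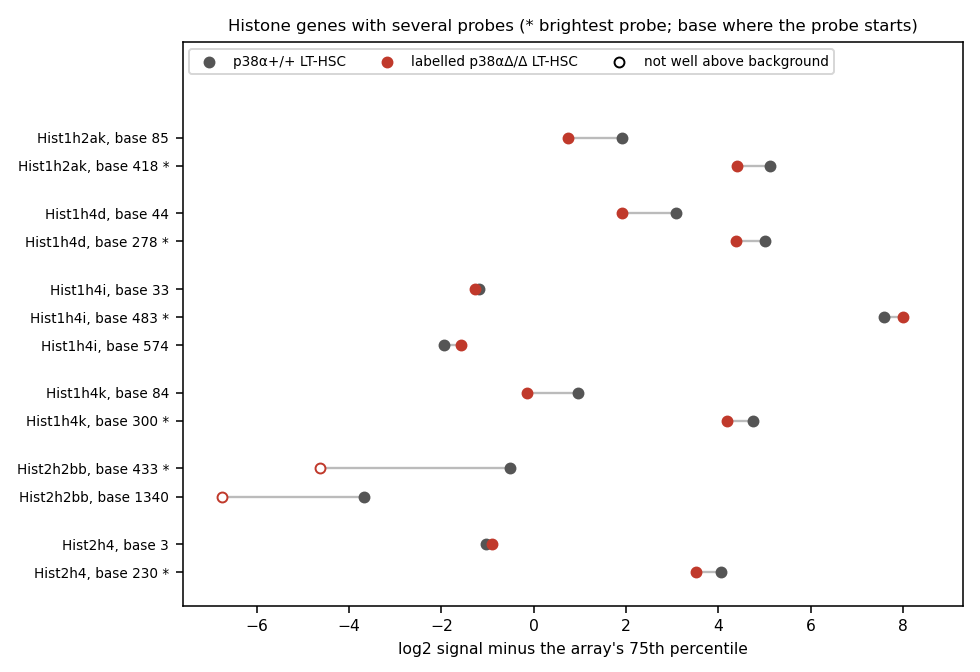
Levels of each probe of the 6 histone genes that have several, on the p38α+/+ array (grey) and the array labelled p38αΔ/Δ (red), as log2 signal minus the array's 75th percentile; labels give the base of the transcript at which the probe starts. Open circles are dim probes. The upstream probes of Hist1h2ak, Hist1h4d and Hist1h4k have longer bars than the downstream ones.

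Some member probes lie on the histone stem-loop itself. The stem-loop was searched on the probe strand as the core CTTTTNAG with a stem of 6 paired bases and a loop of 4, which gave 4 of 52 member probes and 6 of all 55681 probes. The 4 are printed because they mark the end that sets these mRNAs apart from others, with the 16 bases of the stem-loop in capitals.
Hist2h2bb (within mm9 chr3:96074056-96074115, plus strand): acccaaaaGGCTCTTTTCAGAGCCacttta
Hist1h3i (within mm9 chr13:21874784-21874843, minus strand): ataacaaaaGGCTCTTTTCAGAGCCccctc
Hist1h3a (within mm9 chr13:23853756-23853815, minus strand): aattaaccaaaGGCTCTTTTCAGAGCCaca
Hist1h4m (within mm9 chr13:21903960-21904019, plus strand): caactaaaGGCCCTTTTCAGGGCCatccaa
Hist1h3a and Hist1h4m were dim on both arrays, Hist2h2bb was dim on the array labelled p38αΔ/Δ, and Hist1h3i was measured on both. Whether a probe on a stem-loop reads its target less well was not tested.

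The lower signal was not limited to one location. The cluster on chromosome 13 held 28 genes measured on both arrays, of which 23 read lower (median -0.63), and the cluster on chromosome 3 held 6, of which 5 read lower (median -0.77). Of the 2 measured genes on chromosome 11, Hist3h2a read lower and Hist3h2bb-ps higher. Within chromosome 13, 9 genes between positions 21814057 and 21929273 (mm9) had a median of -0.62, with 8 lower, and 16 genes between 23622937 and 23855947 had a median of -0.60, with 13 lower, each stretch holding 1 gene measured on the p38α+/+ array alone. Probes of near-identical genes are placed by the design at 1 of several possible copies, which need not be the gene named. The Hist1h2an probe is placed on the plus strand, where it overlaps that of Hist1h2ao, while the RefSeq promoter of Hist1h2an is on the minus strand. Hist1h2ag, placed across positions 23666685 to 23726365, was left out of the stretches.

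Histone promoters carry short elements that set their transcription in S phase, and their classes differ in which they carry. RefSeq promoters (GRCm38.p6) were found for 39 members, 40 promoters in all, and the 250 bases before each start were searched on both strands for 4 motifs, none of which contains another. The CCAAT box (CCAAT), bound by NF-Y, was in 82.5% of the member promoters and 33.8% of all 32851 promoters, in every H1, H2A and H2B promoter and in 25% of H4 promoters. The octamer ATTTGCAT, bound by OCT1, the product of Pou2f1, was in 62.5% of H2B and 41.7% of H2A promoters and in 1.6% of all promoters. The H1 box (AAACACA) was in 83.3% of H1 promoters and 6.25% of all, and TATAAA in 45% of the members and 12.4% of all. The 150 bases before the start are shown for an H2B, an H1 and an H4 gene that were bright and read lower, with the motifs of either strand in capitals.
Hist1h2bm (GRCm38.p6 chr13:21721894-21722043, plus strand): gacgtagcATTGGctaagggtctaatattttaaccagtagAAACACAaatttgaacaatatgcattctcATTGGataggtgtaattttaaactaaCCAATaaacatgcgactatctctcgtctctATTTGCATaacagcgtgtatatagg
Hist1h1c (GRCm38.p6 chr13:23738657-23738806, plus strand): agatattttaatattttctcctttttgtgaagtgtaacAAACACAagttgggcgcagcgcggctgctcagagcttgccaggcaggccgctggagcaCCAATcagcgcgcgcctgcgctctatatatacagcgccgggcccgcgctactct
Hist1h4d (GRCm38.p6 chr13:23581418-23581567, plus strand): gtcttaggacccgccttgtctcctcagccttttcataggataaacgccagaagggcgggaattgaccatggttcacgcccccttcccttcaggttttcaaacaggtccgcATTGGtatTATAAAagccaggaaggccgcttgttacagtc
The 3 genes differed by -0.62, -0.37 and -0.63. All 3 promoters hold a CCAAT box, those of Hist1h2bm and Hist1h1c the H1 box, that of Hist1h2bm the octamer and that of Hist1h4d TATAAA. A match of letters describes the sequence and is no evidence of binding.

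The regulators of these promoters and the factors that make histone mRNA were set beside the members. Of 13 genes of the histone locus body and histone transcription, 10 read lower and 3 higher, with a median of -0.12 and none past 2-fold. Npat, the factor that defines the locus body, read -2.31 and -2.42 (-0.11), Pou2f1 3.73 and 3.26 (-0.48), and Hinfp, the H4 promoter factor, -1.04 and -1.32 (-0.28). Coil, the coilin gene, read -0.08 and 0.06 (0.14), and Nfyc, a subunit of NF-Y, 0.89 and 1.01 (0.12). Of 14 genes of SLBP and 3′ end processing, 8 read lower and 6 higher, with a median of -0.16. Of these, 2 were at least 2-fold lower, where 6.74% of all 20495 named genes measured were. Lsm11, counted as higher, was measured on the array labelled p38αΔ/Δ alone, so its direction came with the filter. Over the 13 measured on both arrays the median was -0.21. Slbp itself read 1.67 and 1.46 (-0.21). The largest differences were those of Srrt, which links the cap-binding complex to RNA processing, at -0.40 and -1.83 (-1.44), and Lsm10, a subunit of the U7 snRNP that directs the cut of histone pre-mRNA, at 0.48 and -0.63 (-1.10). Sympk, a scaffold of the cleavage complex, read 0.24 and 0.80 (0.56), and Cstf2 1.87 and 2.21 (0.34).

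Genes of DNA replication did not share the lower signal. Of 27 S phase genes 13 read lower and 14 higher, with a median of 0.08 and none past 2-fold in either direction. Pcna, the sliding clamp, read 4.92 on both arrays (-0.01). Gins2 of the replicative helicase read -0.60 and -1.24 (-0.65) and Rfc3 of the clamp loader -0.67 and -0.89 (-0.22), while Cdc45 read -2.08 and -1.48 (0.60) and Uhrf1 4.29 and 4.87 (0.58). Of 20 mitosis genes 7 read lower and 13 higher, with a median of 0.21. Among them Ccnb1 differed by -0.67 and Ube2c by -0.52, Cenpe by 0.69 and Cdk1 by 0.55. Cenpf, counted as lower, was measured on the p38α+/+ array alone, so its direction came with the filter. Of 19 histone chaperone genes 11 read lower and 8 higher, with a median near 0 (-0.004). The largest differences there were in Nap1l4, an H2A-H2B chaperone, at 1.94 and 0.76 (-1.18), and Hjurp, the CENP-A chaperone (-0.80), and in the other direction in Asf1a, the H3-H4 chaperone, at -1.66 and -0.41 (1.25), and Hira (0.58).

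Histone genes expressed outside S phase gave a smaller difference. Of 12 such genes 9 read lower and 3 higher, with a median of -0.29 and none past 2-fold. H2afz read 5.56 and 5.52 (-0.03), and H3f3b, a gene of the replacement histone H3.3, 5.72 and 5.76 (0.04). The largest differences were those of H2afj, at 5.45 and 4.69 (-0.77), and the linker histone H1f0, at -2.11 and -2.73 (-0.62), and on the higher side those of Cenpa (0.33) and H1fx (0.15). The H2afj value stood at the level and difference of the H2A family, and its probe shares runs of 29 to 38 bases with 5 member probes. The longest of these runs, 38 bases, is in capitals.
H2afj (mm9 chr6:136757181-136757240, plus strand): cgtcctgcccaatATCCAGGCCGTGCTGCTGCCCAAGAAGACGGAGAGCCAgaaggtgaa
Hist2h2aa2 (mm9 chr3:96043781-96043840, minus strand): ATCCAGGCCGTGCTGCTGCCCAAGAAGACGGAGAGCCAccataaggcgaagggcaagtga
Without H2afj, 8 of 11 genes of this list read lower, with a median of -0.23.

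**Figure D4:**
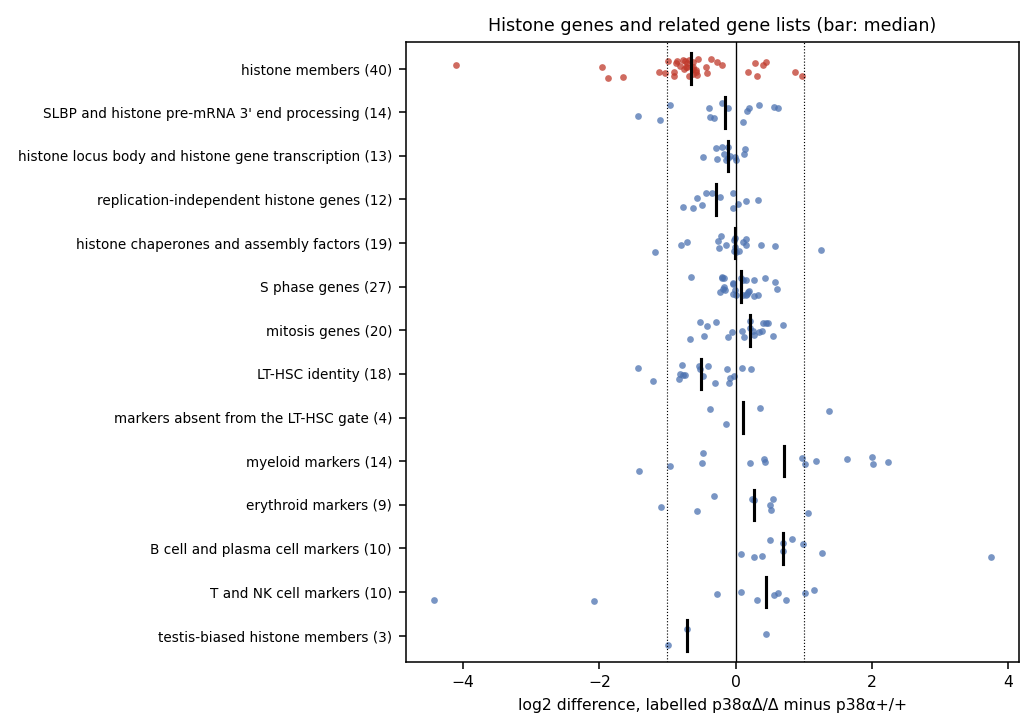
Log2 difference (array labelled p38αΔ/Δ minus p38α+/+) of each gene measured on at least 1 array, for the histone genes (red) and related gene lists (blue), with the number of genes measured in brackets, the median as a black bar and dotted lines at 2-fold. A dim side stands at the floor of its array. The histone median is -0.65 and that of S phase genes 0.08.

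Markers of the sorted cells and of other cells also differed between the arrays, and not all in the direction of the histone genes. Of 18 LT-HSC genes 16 read lower, with a median of -0.50, where 52.0% of 18505 named genes measured on both arrays did. Among named genes with a mean level above 2 the share lower was 60.2%. Mecom (-1.44) and Procr (-1.22) had the largest differences of these LT-HSC genes, while Robo4 (0.23) read higher. Kit, a gate marker, read 5.66 and 5.57 (-0.09). Of 4 markers that the gates leave out, 2 read lower and 2 higher, with a median of 0.11. Cd34 was well above background on both arrays, at 2.81 and 2.67 (-0.15), and Itga2b differed by -0.37. Cd48 read -2.06 and -0.69 (1.37), and Flt3 differed by 0.36. Of 14 myeloid markers 10 read higher, 6 of them at least 2-fold, where 4.17% of 18505 named genes measured on both arrays were. The summed linear level of the 14, in units of the 75th percentile, went from 426 to 579 between the arrays. Most of it came from Csf3r and Itgam, without which it was 37.3 and 56.6. Ltf (2.23) and S100a9 (2.01), both neutrophil genes, led the list, and Elane (-1.41) and Lyz2 (-0.96) went the other way. All 8 B and plasma cell markers measured on both arrays read higher, led by Igj (3.75) and Cd79a (1.26). Ebf1 and Ms4a1 were measured on the array labelled p38αΔ/Δ alone, so their higher reading came with the filter. Over these 10 the summed levels were 4.06 and 19.2, or 2.93 and 4.00 without Igj, and Igll1 was dim on both arrays. T and NK markers summed to 19.9 and 24.4, with Zap70 (-4.43) and Cd2 (-2.07) lower, Gzmb (1.15) and Cd3e (1.02) higher, and Cd3d and Cd3g dim on both. Of 9 measured erythroid markers 3 read lower and 6 higher, with a median of 0.27. They summed to 81.3 and 71.3, most of it from Car2, at 6.12 and 5.81 (-0.31). Hbb-bt (-1.10) and Hba-a1 (-0.57) were lower and Slc4a1 (1.06) and Hba-a2 (0.55) higher. In these bulk samples fewer cells of a type and less RNA per cell cannot be told apart, and the part of these cells in the histone differences was not tested.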

How the data were processed

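Cy3-labelled RNA of sorted LT-HSCs was measured on single-colour mouse expression arrays (Agilent), both of them on 1 slide. For each array the authors deposited the scanner intensity of every spot, background-subtracted by Agilent Feature Extraction 11.5.1.1 and not normalized between arrays. A deposited table gives the authors' log2 values of 35795 probes, normalized by them, and each column equals the scanner's log2 signal minus a constant (7.16 and 6.84), so that only its probe selection differs. Its medians were -0.79 and -0.79.

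From the scanner files, control spots and outlier spots were left out, which removed 19 of 55681 probes. Each probe's mean log2 signal was taken relative to the 75th percentile of its array, and the probe with the highest mean over both arrays was used for each gene. A gene counted as measured if the scanner marked it well above background on either array. Where the other side lacked that mark, a floor was used, namely the lowest marked signal of that array (-4.65 and -4.78), and the fold is given as a lower bound. No spot was saturated (0 on either array). Precision is limited by the number of arrays, since with 1 array per group no p-value or SD over mice can be given.

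The histone genes and the other gene lists were chosen with earlier results of these data known. Genes named are Mapk14, members past 2-fold, the 3 largest differences of each class in either direction, members on 1 array only or with several probes, and the 2 largest differences of each list in either direction. Some items that this rule names are not reported here. Bright members, the genes discussed for their sequence and other list genes were named after their values were seen. Values were also computed with quantile normalization, median centring, a loess fit (span 0.3), normexp background correction (offset 50), the authors' normalized values, other filters, no floor, probes averaged per gene, outlier spots kept, and leaving out the 3 testis-biased members. The calculations were tested on simulated data. Probe sequences and mm9 coordinates are those of the scanner files, and names and promoters are from RefSeq (GRCm38.p6). Python 3.11.15, numpy 2.4.6, pandas 2.3.3, matplotlib 3.10.9, R 4.3.3 and limma 3.58.1 were used.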

Additional observations from a re-analysis of the deposited data

How the results depend on the processing

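The median difference of the histone genes kept its direction under all 11 other settings named in the processing account, between -0.70 (probes averaged per gene) and -0.57 (normexp), while the median of all named genes stayed between -0.13 and 0.07. No member was at least 2-fold higher under any of them (0 throughout). With normexp background correction the number of members at least 2-fold lower was 1 in place of 6, the H2B median was -0.24, the H3 median -0.36, and Hist1h3g turned from -0.28 to 0.11. Over all named genes normexp gave 161 genes at least 2-fold lower and 153 higher, against 1382 and 1071, so the loss of large differences was not particular to histones. With probes averaged per gene the H4 median was -0.86, with Hist1h4d and Hist1h4k further below 0 and Hist2h4 and Hist1h4i closer to it. The cause was not tested for the other values. Leaving out Hist1h4i, chosen after the data were seen, gave a median of -0.68. Folds of dim members, Hist2h2bb and Hist1h2bq above all, depend on the background correction. No paired analysis was possible because each group has 1 array, and for the same reason no replicate could be left out.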
